A study of Homo sapiens with 8 samples.

Results

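Antisense-named RNAs are transcripts, most of them long and non-coding, that carry the symbol of a neighbouring gene followed by -AS and a number. They were taken here as the rows of the count tables whose symbol ends in that way and whose level averaged at least 2 CPM (counts scaled to the library's total of gene-assigned reads) over the 8 libraries. The rule chose 291 of the 1817 rows named in this way, out of 61228 gene rows in all. The mean includes the ACBI1 libraries, so an RNA could pass through the treatment in which it was high, and its change is then not independent of the rule. Of the 291, 34 averaged under 2 CPM over the 4 DMSO libraries and 8 over the 4 ACBI1 libraries, and the other 249 reached 2 CPM in both. Of the RNAs described singly, PIK3CD-AS2, ID2-AS1, DMTF1-AS1, TAGAP-AS1, TRIM7-AS2, FOXP4-AS1, PLS3-AS1, PDCD4-AS1, HOXC-AS2, KHDC1-AS1 and FMNL1-AS1 are among the 34, and KLHL30-AS1, ST20-AS1, ATP2B1-AS1, HECW2-AS1, DNAAF3-AS1 and UCKL1-AS1 among the 8. Their changes are a description, and the adjusted p-values printed with them come from the fit over all genes and are no independent support. Levels are a description throughout. The mean levels ran from 2.02 to 219 CPM with a median of 5.38 CPM. NDUFB2-AS1 (2.025 CPM), UBAC2-AS1 (2.019 CPM) and VLDLR-AS1 (2.019 CPM) lay just inside the limit, and PRR34-AS1 (1.988 CPM), ST7-AS1 (1.986 CPM) and UBQLN1-AS1 (1.978 CPM) just outside. All 291 passed the filter on low counts, and all 291 were matched to an Ensembl gene of GENCODE 29 (GRCh38). That annotation classed 222 as antisense, 32 as processed transcripts and 29 as long intergenic RNAs, while KCNJ5-AS1 and KRT10-AS1 were classed as protein-coding and SLC44A3-AS1, SVIL-AS1 and TP73-AS1 as pseudogenes.

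An antisense transcript is read from the strand opposite to a gene, and the gene on the other strand is called the sense gene. Many arise at promoters that fire in both directions, and others run across the 3' end or the introns of the sense gene. A number of such RNAs have been shown to act on the sense gene in cis, through the act of transcription or by bringing chromatin regulators to the locus, but for most no function is known. Transcripts that start divergently from promoters are commonly short-lived because the nuclear exosome, a complex of RNA-degrading and accessory proteins, removes them. SWI/SNF complexes use ATP to move and evict nucleosomes at promoters and enhancers, and SMARCA2 and SMARCA4 are their alternative motors.

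The cells were H1975 and HCC44, established human lung cancer lines labelled as wild type, and the series concerns SMARCA4-mutant lung cancer, anti-tumour immunity and the STING pathway. Each line was grown in RPMI medium with serum and received ACBI1 or the solvent DMSO for 96 hours, which gives 4 groups of 2 replicates: H1975 DMSO, H1975 ACBI1, HCC44 DMSO and HCC44 ACBI1. ACBI1 is a bifunctional molecule: one end holds the bromodomain of SMARCA2, SMARCA4 or the related subunit PBRM1, and the other recruits the VHL ubiquitin ligase, which leads to degradation of the protein. Its concentration is labelled 1 mM, which is far more than is common for such molecules, and the unit is therefore doubtful. One HCC44 ACBI1 title (replicate 2) has a shortened compound name. Because the molecule acts on proteins, the RNA of the target genes cannot serve as a check of treatment. The labels do not say that replicates came from separate cultures, so p-values measure the spread between these samples, which may be technical. Each result is given per line, since these are 2 single lines and not replicates of a tumour type. Levels below are CPM scaled with TMM factors, which allow for differences in RNA composition between libraries.

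Gene-assigned counts ranged from 62467286 to 70455517 per library. The 291 antisense-named RNAs took 0.329 to 0.338% of the counts in H1975 DMSO, 0.406 to 0.407% in H1975 ACBI1, 0.276 to 0.279% in HCC44 DMSO and 0.319 to 0.343% in HCC44 ACBI1, so the groups did not overlap within either line. Of the 6 epithelial markers, all were detected in both lines, with EPCAM at 171 and 10.6 CPM in the DMSO groups of H1975 and HCC44. NKX2-1, the lung lineage factor, had 25.9 and 0.0159 CPM in the same groups. Markers of other cells were low for immune cells (4 markers, summed mean of 0.128 to 1.01 CPM over the 4 groups, with CD3E at 0 throughout) and endothelial cells (3 markers, 0.531 to 3.66 CPM). The 4 fibroblast markers summed to 60.3 CPM in H1975 DMSO, 27.9 in H1975 ACBI1, 82.6 in HCC44 DMSO and 305.0 in HCC44 ACBI1, nearly all of it COL1A1, while DCN was at 0 in every library. The epithelial markers summed to 5260 CPM and 2570 CPM in H1975 DMSO and ACBI1, and to 960.0 CPM and 1430 CPM in HCC44. In H1975, 4 of the 6 were called lower and 2 were not called. In HCC44, EPCAM and KRT7 were called higher, KRT8 lower and the other 3 not called. The rise of the sum in HCC44 lay in KRT7 (means of 441 CPM with DMSO and 936 with ACBI1), while KRT8 went from 217 to 151 CPM. The part of these marker levels in the results on antisense-named RNAs was not tested. In such bulk samples fewer cells of a type and less RNA per cell cannot be told apart.

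Whether the counting used strand is not given in the sources used here, and without strand, reads of a gene and its antisense partner cannot be told apart. The tables were therefore read for it. Of 108 annotated genes of at least 300 exon bases whose exons lie under the exons of an opposite-strand gene at 10 CPM per kb or more, 106 had counts, with a median level of 1.079% of the covering gene (quartiles 0.49 and 3.001%, highest 13.869%). A median of 9.3% of the exon bases of the 291 RNAs lay in opposite-strand exons, and 54 RNAs had no such base. HTSeq sets reads that fall on 2 genes aside as ambiguous (4.98 to 5.42% of each table). Without strand, the covered genes would therefore be low as well, so this measure cannot tell whether strand was used. If it was, reads from the other strand at the median rate would make up 0.12% of the level of the median RNA. They would make up over 10% of 7 RNAs: TUBA1B-AS1 (90.85%), SLC25A5-AS1 (37.78%), RUSC1-AS1 (32.57%), CYP1B1-AS1 (15.76%), PPM1F-AS1 (15.22%), PCBP1-AS1 (13.21%) and CEBPB-AS1 (11.35%). None of these 7 is described singly below. The same share for the RNAs described singly was at most 5.15%, in PSMB8-AS1. The part of unspliced sense RNA, whose introns can cover an antisense exon, was not tested.

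Antisense-named RNAs rose with ACBI1 more often than they fell, in both lines. In H1975, 92 rose and 28 fell of 291 (31.6 and 9.62%), with a median log2 fold change of 0.22. Over all 21307 genes tested, 31.3% were called in H1975, 14.6% higher and 16.7% lower, with a median of -0.01. In HCC44, 100 rose and 32 fell (34.4 and 11.0%), with a median of 0.31. The shares over all genes there were 34.9% called, 17.5% higher and 17.4% lower, with a median of 0.01. Calls are adjusted p-values under 0.05 (edgeR quasi-likelihood F-test, Benjamini-Hochberg adjusted over all genes tested). Among the 13328 tested genes that also averaged 2 CPM or more, 15.8% rose and 21.8% fell in H1975, and 20.8% rose and 23.1% fell in HCC44. Of the 249 RNAs that reached 2 CPM in both treatments, a limit chosen after the data were seen, 72 rose and 23 fell in H1975 (28.9 and 9.24%) and 80 rose and 26 fell in HCC44 (32.1 and 10.4%). Over the 12798 tested genes that met the same limit, 14.9% rose and 21.9% fell in H1975, and 20.1% rose and 23.2% fell in HCC44. The ACBI1 and DMSO libraries did not overlap, called or not, for 211 of the 291 RNAs in H1975 (72.5%, against 67.3% of all genes tested and 72.5% of those averaging 2 CPM or more) and for 226 in HCC44 (77.7%, against 66.8 and 73.9%). These shares are near those of genes at such levels.

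The sense genes did not show that split. Of the 272 sense genes tested, 31 rose and 71 fell in H1975 with a median of -0.05, and 62 rose and 59 fell in HCC44 with a median of 0.0. Called sense genes were 37.5% in H1975, against 31.3% of all genes tested and 37.7% of those averaging 2 CPM or more. In HCC44 they were 44.5%, against 34.9 and 43.9%. With library totals instead of TMM scaling, the median of all genes moved by 0.203 on the log2 scale in H1975 and 0.091 in HCC44. The split of the antisense-named calls was then 128 higher and 19 lower in H1975 (87.1% of calls higher, against 76.7% with TMM), and 111 higher and 26 lower in HCC44. The count in H1975 was 69 without ACBI1 replicate 2 and 78 without DMSO replicate 1. In HCC44 it ranged from 88 to 133 over the 8 libraries left out in turn. Over the 20 alternatives run for each line, the median change had a range of 0.17 to 0.42 (H1975) and 0.26 to 0.4 (HCC44).

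**Figure D1:**
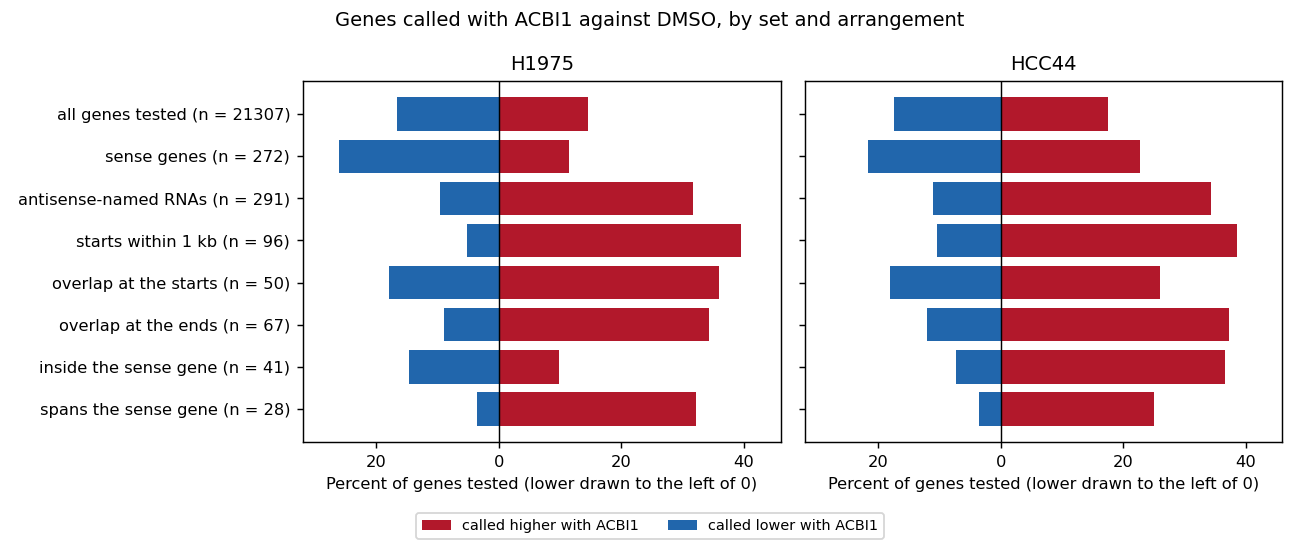
Percent of genes called higher (right of 0) and lower (left of 0) with ACBI1 against DMSO in each line, for all genes tested, the sense genes, the antisense-named RNAs and their 5 main arrangements. Antisense-named RNAs had 31.6% higher and 9.62% lower calls in H1975 and 34.4% and 11.0% in HCC44, while all genes tested had 14.6% and 16.7%, and 17.5% and 17.4%.

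The RNAs were grouped by how they lie to the sense gene in GENCODE 29, taking closeness of the starts first. The 96 whose start lay within 1 kb of the start of the sense gene on the other strand had 38 rises and 5 falls in H1975 and 37 rises and 10 falls in HCC44. The 67 that overlapped the 3' end of the sense gene had 23 rises and 6 falls in H1975 and 25 rises and 8 falls in HCC44. Where the overlap covered the starts (50 RNAs), 18 rose and 9 fell in H1975 and 13 rose and 9 fell in HCC44. The 28 that spanned the whole sense gene had 9 rises and 1 fall in H1975 and 7 rises and 1 fall in HCC44. Among the 41 that lay inside the sense gene, 4 rose and 6 fell in H1975, against 15 and 3 in HCC44. These 41 shared the sign of the sense gene's change in 72.5% of 40 tested pairs in H1975 and in 37.5% in HCC44. Over all 275 pairs tested the shares were 52.0 and 50.5%. The remaining 9 had no overlap (5), the same strand as the sense gene (FAM131B-AS2 and PYDC2-AS1) or no single sense gene (HOXA-AS2 and HOXC-AS2). The difference in calls between arrangements was not tested.

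The 54 RNAs with no exon base under an opposite-strand exon had 23 rises and 4 falls in H1975 (42.6 and 7.41%). In HCC44 they had 21 rises and 10 falls (38.9 and 18.5%), so rises outnumbered falls among them too. Over all genes tested, 14.6% rose and 16.7% fell in H1975, and 17.5 and 17.4% in HCC44. Other classes of non-coding RNA with a mean of at least 2 CPM were read in the same fit. Of 116 rows named as divergent transcripts (-DT), which start at a promoter and run away from the gene, 51 rose and 7 fell in H1975 (medians 0.43 here and 0.42 in HCC44), and 48 rose and 3 fell in HCC44. Of 133 intergenic rows with LINC names, 29 rose and 18 fell in H1975 and 41 rose and 19 fell in HCC44, with medians of 0.0 and 0.25. The share called higher was therefore highest for -DT rows (44 and 41.4%) and lowest for LINC rows (21.8 and 30.8%), with antisense-named RNAs between them, and these differences between classes were not tested.

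Calls were shared between the lines in the same direction for 57 RNAs: 46 rose in both (15.8%, against 5.83% of all genes tested) and 11 fell in both (3.78%, against 7.08%). A further 102 were called in neither line (35.1%, against 49% of all genes). These shares were not taken over genes averaging 2 CPM or more. Such genes were called more often than all genes, at 37.7 against 31.3% in H1975 and 43.9 against 34.9% in HCC44. Both the 46 and the 11 include RNAs under 2 CPM in 1 treatment, whose changes the rule favours. Across the 291 RNAs the log2 fold changes of the lines had a Pearson correlation of 0.48 and a Spearman correlation of 0.36, given as a description since the points share their libraries within a line. A called rise of at least 1 on the log2 scale occurred in 37 RNAs in H1975 (12.7%, against 6.7% of all genes tested and 3.95% of those averaging 2 CPM or more) and 48 in HCC44 (16.5%, against 8.8 and 7.5%). A called fall of that size occurred in 14 in H1975 (4.81%, against 5.74 and 4.73%) and 17 in HCC44 (5.84%, against 5.93 and 4.94%), near the shares of other genes. The large rises include RNAs under 2 CPM over the DMSO libraries, such as PIK3CD-AS2 and ID2-AS1, whose rises the rule favours. Of the 34 such RNAs, 20 were called higher in each line. Large rises were not counted among the 249 that reached 2 CPM in both treatments.

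PIK3CD-AS2 had the largest rise in both lines. It lies at chr1:9672426-9687555 on the minus strand with 3 exons, inside PIK3CD, which encodes a catalytic subunit of phosphoinositide 3-kinase best known in leukocytes. Its level was 0.792 and 0.739 CPM with DMSO and 7.59 and 10.3 CPM with ACBI1 in H1975. In HCC44 it was 1.02 and 1.28 CPM with DMSO and 17.1 and 18.3 CPM with ACBI1. Every ACBI1 library thus lay several-fold above every DMSO library of either line. The log2 fold change was 3.54 in H1975 (SE 0.22, adjusted p = 5.93e-06) and 3.94 in HCC44 (SE 0.22, adjusted p = 1.11e-06). PIK3CD itself had log2 fold changes of 0.22 (adjusted p = 0.386) and 0.06 (adjusted p = 0.85), at 12.8 to 29.2 CPM in the 8 libraries.

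ID2-AS1 rose by a like amount in both lines, while its sense gene rose in HCC44. It lies at chr2:8666636-8681863 on the minus strand and overlaps the start of ID2, whose protein blocks basic helix-loop-helix transcription factors. H1975 had 0.559 and 0.237 CPM with DMSO and 2.33 and 2.49 CPM with ACBI1, a log2 fold change of 2.6 (SE 0.34, adjusted p = 0.000347). HCC44 had 1.61 and 1.11 CPM with DMSO and 8.46 and 9.2 CPM with ACBI1, a log2 fold change of 2.7 (SE 0.3, adjusted p = 8.26e-05). ID2 was at 9.44 and 7.35 CPM with DMSO and 10.4 and 7.99 CPM with ACBI1 in H1975, which overlap, and at 12.4 and 7.85 CPM in HCC44 DMSO and 41.5 and 66.4 CPM in HCC44 ACBI1, which do not. Its log2 fold change was 0.13 in H1975 (adjusted p = 0.771) and 2.41 in HCC44 (SE 0.29, adjusted p = 0.000415).

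BSG-AS1, which starts 951 bases from the start of BSG on the opposite strand, rose in both lines. BSG encodes basigin, a surface glycoprotein that escorts lactate transporters to the membrane. BSG-AS1 was at 2.79 and 2.51 CPM with DMSO and 7.5 and 9.97 CPM with ACBI1 in H1975, and at 2.32 and 2.38 CPM with DMSO and 6.32 and 8.02 CPM with ACBI1 in HCC44. The log2 fold changes were 1.72 (SE 0.21, adjusted p = 0.000224) and 1.61 (SE 0.21, adjusted p = 0.00023). BSG is among the strongly expressed sense genes, at 435 to 855 CPM, and had log2 fold changes of -0.29 in H1975 (adjusted p = 0.0593) and -0.73 in HCC44 (adjusted p = 0.000406).

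The promoters of these 3 RNAs are shown because the RNAs rose together in both lines. They come from RefSeq (GRCh38.p14) and hold 250 bases before and 50 after the RefSeq start, 5′ to 3′ on the strand of the RNA, with each CG dinucleotide in capitals. The RNAs shown here and further on were chosen after their values were seen.
PIK3CD-AS2, chr1:9687525-9687824, minus strand: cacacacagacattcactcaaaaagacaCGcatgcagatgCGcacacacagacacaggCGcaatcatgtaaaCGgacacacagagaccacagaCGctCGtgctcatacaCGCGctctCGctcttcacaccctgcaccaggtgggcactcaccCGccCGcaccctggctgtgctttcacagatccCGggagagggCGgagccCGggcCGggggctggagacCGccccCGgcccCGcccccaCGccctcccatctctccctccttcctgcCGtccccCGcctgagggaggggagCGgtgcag
ID2-AS1, chr2:8681814-8682113, minus strand: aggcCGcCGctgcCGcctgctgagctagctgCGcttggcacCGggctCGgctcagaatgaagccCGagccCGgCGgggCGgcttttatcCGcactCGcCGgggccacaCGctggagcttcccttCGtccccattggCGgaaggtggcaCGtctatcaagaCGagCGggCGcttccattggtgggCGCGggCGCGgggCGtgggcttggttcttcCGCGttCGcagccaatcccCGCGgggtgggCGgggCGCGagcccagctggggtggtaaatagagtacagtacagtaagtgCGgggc
BSG-AS1, chr19:572199-572498, minus strand: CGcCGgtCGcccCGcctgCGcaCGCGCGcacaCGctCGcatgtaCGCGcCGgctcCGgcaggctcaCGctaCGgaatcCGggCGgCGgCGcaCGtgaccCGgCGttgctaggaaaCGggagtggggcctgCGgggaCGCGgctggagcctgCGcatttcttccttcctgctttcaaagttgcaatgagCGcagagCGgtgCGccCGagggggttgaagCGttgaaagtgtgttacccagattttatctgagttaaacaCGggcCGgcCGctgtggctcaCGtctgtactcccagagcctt
The 3 windows hold 22, 34 and 37 CG dinucleotides, and none holds the AP-1 letters searched below. Of the 291 RNAs, 231 had a RefSeq promoter. The ratio of observed to chance CG content had a median of 0.78 over these 231 and 0.58 over the 27305 promoters of the table. The median was 0.9 over the 39 RNAs that rose in both lines and 0.55 over the 8 that fell in both. For PIK3CD-AS2, ID2-AS1 and BSG-AS1 the ratio was 0.71, 0.96 and 1.16, so that of PIK3CD-AS2 lay below the median of the 231.

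Other RNAs with rises in both lines had smaller changes. DMTF1-AS1 starts 59 bases from DMTF1, a Myb-like transcription factor, and went from 1.6 and 1.61 CPM to 4.67 and 5.6 CPM in H1975 and from 0.27 and 0.188 CPM to 0.688 and 0.724 CPM in HCC44. Its log2 fold changes of 1.68 (SE 0.23, adjusted p = 0.000449) and 1.62 (SE 0.31, adjusted p = 0.00229) stood beside 0.16 (adjusted p = 0.239) and 0.34 (adjusted p = 0.0201) for DMTF1. TAGAP-AS1 spans TAGAP, a GTPase-activating protein gene of lymphocytes whose own row was at or near 0 in every library. It went from 1.88 and 1.4 CPM to 4.32 and 5.77 CPM in H1975 (log2 fold change 1.62, SE 0.26, adjusted p = 0.00121). In HCC44 it went from 0.27 and 0.376 CPM to 0.88 and 0.692 CPM (1.28, SE 0.34, adjusted p = 0.0127), a call that missed the threshold without DMSO replicate 1 or without ACBI1 replicate 1 (adjusted p 0.0984 and 0.0657). NAPA-AS1 rose in both lines, with log2 fold changes of 0.99 in H1975 (adjusted p = 0.0125) and 1.61 in HCC44 (SE 0.26, adjusted p = 0.000812). NAPA, which encodes the membrane-fusion adaptor alpha-SNAP, fell in both lines, with log2 fold changes of -0.64 (adjusted p = 0.00142) and -0.85 (adjusted p = 0.000177). The NAPA-AS1 call in H1975 was lost without DMSO replicate 1 (adjusted p 0.0646) or without ACBI1 replicate 2 (0.0881). The other shared rises had log2 fold changes from 0.41 (MCM3AP-AS1) upwards in H1975 and from 0.39 (MAP3K14-AS1) upwards in HCC44.

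DLGAP1-AS2 rose from a higher starting level. It was at 13.4 and 11.1 CPM with DMSO and 34.8 and 28.3 CPM with ACBI1 in H1975, and at 22.3 and 17.2 CPM with DMSO and 91.8 and 60.1 CPM with ACBI1 in HCC44. The log2 fold changes were 1.37 (SE 0.22, adjusted p = 0.00178) and 1.94 (SE 0.22, adjusted p = 0.000191). It is annotated inside DLGAP1, a gene of the postsynaptic scaffold that was itself at 0.0 to 0.799 CPM. The difference between the lines was 0.58 (adjusted p = 0.227), and was called with no filter on low counts (0.59, adjusted p = 0.0127) and without HCC44 ACBI1 replicate 2 (0.86, adjusted p = 0.0437).

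**Figure D2:**
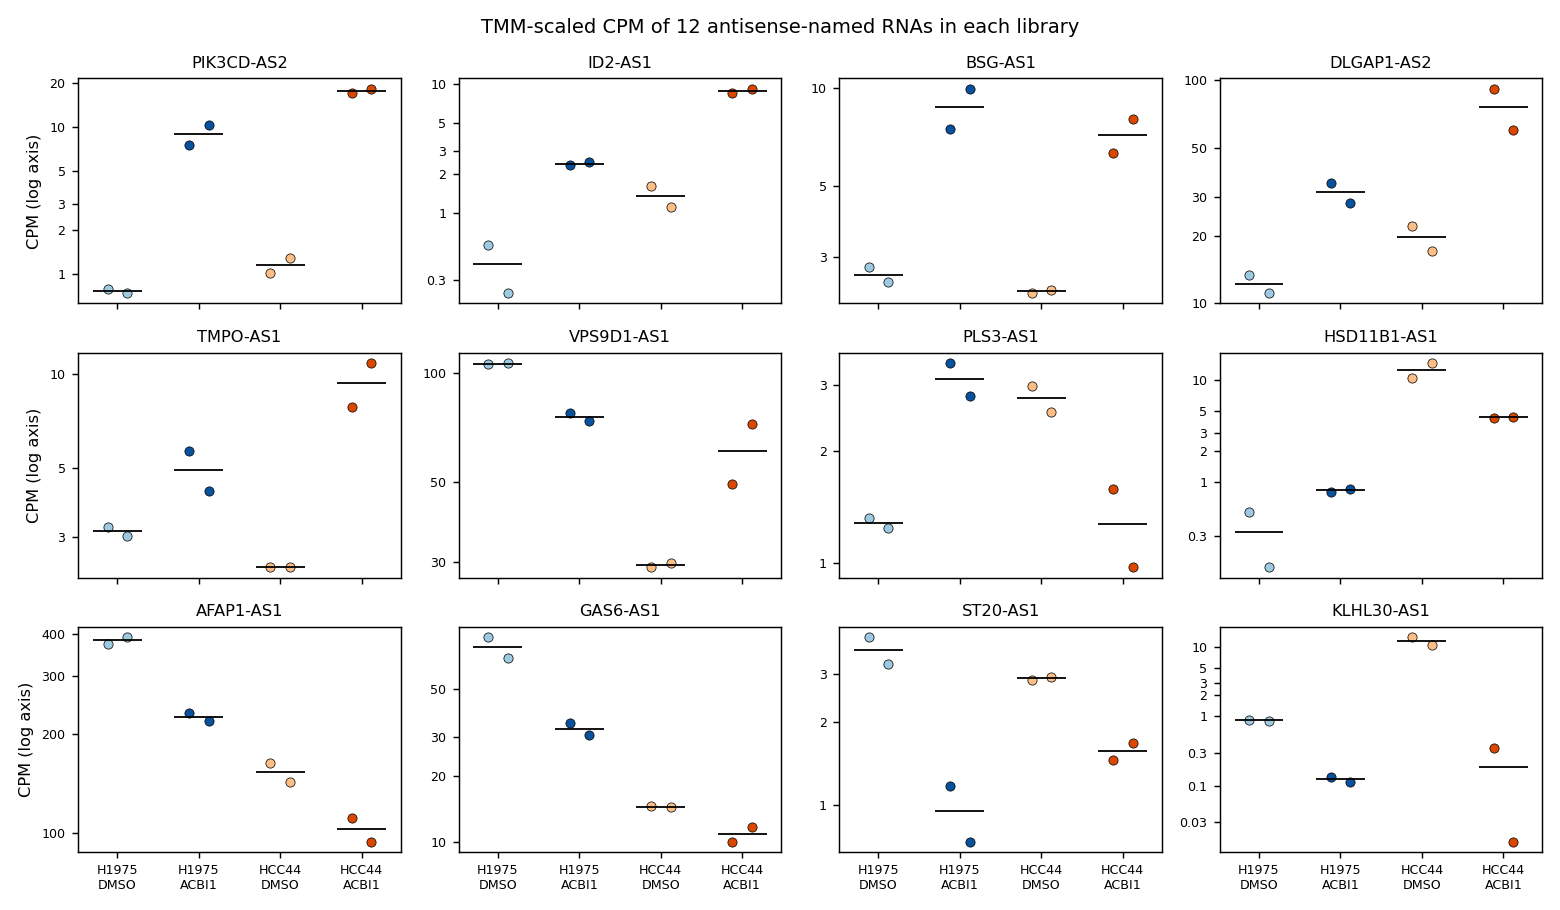
TMM-scaled CPM on a log axis for 12 antisense-named RNAs. Each point is a library, bars are group means, and the 4 groups are H1975 DMSO, H1975 ACBI1, HCC44 DMSO and HCC44 ACBI1. The 2 ACBI1 libraries of PIK3CD-AS2 lay at 7.59 and 10.3 CPM in H1975 and at 17.1 and 18.3 CPM in HCC44, above all DMSO libraries, while VPS9D1-AS1, PLS3-AS1 and HSD11B1-AS1 moved in opposite directions in the lines.

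Several rises were larger in H1975. DGUOK-AS1, which overlaps the 3' end of the gene for mitochondrial deoxyguanosine kinase, went from 1.54 and 1.12 CPM to 6.02 and 6.13 CPM in H1975 (log2 fold change 2.19, SE 0.23, adjusted p = 9.99e-05). In HCC44 it went from 2.97 and 3.73 CPM to 4.62 and 5.68 CPM, which is 0.62 (SE 0.22, adjusted p = 0.0481). That second call missed the threshold when any of 5 libraries was left out (H1975 ACBI1 1 or 2, HCC44 DMSO 1 or 2, HCC44 ACBI1 2), with adjusted p from 0.0618 to 0.26, and with that line fitted alone (0.051). The difference between the lines was -1.57 (SE 0.32, adjusted p = 0.00718). DGUOK had log2 fold changes of 0.16 (adjusted p = 0.198) and -0.38 (adjusted p = 0.00691).

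TRIM7-AS2 rose in H1975 beside its sense gene. It was at 1.18 and 1.17 CPM with DMSO and 3.34 and 4.21 CPM with ACBI1 in H1975 (log2 fold change 1.68, SE 0.24, adjusted p = 0.000533), and at 1.4 and 1.13 CPM and 1.62 and 1.51 CPM in HCC44 (0.31, adjusted p = 0.371). TRIM7, a ubiquitin ligase gene, rose in both lines, by 2.02 (adjusted p = 7.77e-05) and 0.98 (adjusted p = 0.00293). ZNF710-AS1 went from 0.916 and 0.606 CPM to 2.13 and 2.5 CPM in H1975 (1.6, SE 0.29, adjusted p = 0.00228), while HCC44 had 4.12 and 5.89 CPM with DMSO and 3.47 and 4.53 CPM with ACBI1, which overlap (-0.32, adjusted p = 0.375). ZNF710, a zinc finger gene, fell in H1975 (-0.56, adjusted p = 0.0074).

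Among the falls, KLHL30-AS1 had the largest in both lines. It is a single-exon locus at chr2:238152889-238155994 that GENCODE 29 lists as still to be experimentally verified. Its level went from 0.885 and 0.858 CPM to 0.133 and 0.113 CPM in H1975 and from 13.9 and 10.5 CPM to 0.352 and 0.0157 CPM in HCC44. The last value is 1 count, against 22 counts in the other HCC44 ACBI1 library and 873 and 669 counts with DMSO. The log2 fold changes were -2.8 (SE 0.67, adjusted p = 0.0124) and -6.04 (SE 0.6, adjusted p = 0.000101). The value in HCC44 rests on those few counts: leaving out the library with 22 counts gave -9.43, and leaving out that with 1 count gave -5.1. The call in H1975 missed the threshold without any of the 4 H1975 libraries (adjusted p 0.0716 to 0.12). KLHL30 was at 0.296 CPM or less in every library.

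ST20-AS1, ATP2B1-AS1 and GAS6-AS1 also fell in both lines. ST20-AS1 went from 4.1 and 3.27 CPM to 1.17 and 0.735 CPM in H1975 (log2 fold change -1.95, SE 0.27, adjusted p = 0.00045). In HCC44 it went from 2.86 and 2.93 CPM to 1.46 and 1.68 CPM (-0.88, SE 0.26, adjusted p = 0.0224), a call lost without any of the 4 HCC44 libraries (adjusted p 0.0531 to 0.101). ATP2B1-AS1 starts 341 bases from ATP2B1, a calcium pump of the plasma membrane. It went from 3.98 and 4.17 CPM to 1.42 and 1.71 CPM in H1975 and from 5.2 and 3.12 CPM to 1.58 and 1.6 CPM in HCC44, with a log2 fold change of -1.38 in each (adjusted p = 0.0029 and 0.0023). ATP2B1 fell in H1975 (-1.21, adjusted p = 0.000699) and had -0.22 in HCC44 (adjusted p = 0.345).

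GAS6-AS1 was among the more abundant RNAs that fell. GAS6 encodes the ligand of the TAM receptor kinases, and GAS6-AS1 overlaps its 3' end. GAS6-AS1 was at 86.8 and 69.4 CPM with DMSO and 34.8 and 30.7 CPM with ACBI1 in H1975 (log2 fold change -1.25, SE 0.13, adjusted p = 0.000103). In HCC44 it was at 14.5 and 14.4 CPM and at 10.0 and 11.7 CPM (-0.41, SE 0.14, adjusted p = 0.0383), a call lost under library-total or upper-quartile scaling (adjusted p 0.0924 and 0.069), with that line fitted alone (0.0599), and without HCC44 DMSO 1, DMSO 2 or ACBI1 1 (0.124 to 0.187). GAS6 showed the other order, with -0.25 in H1975 (adjusted p = 0.345) and -1.14 in HCC44 (adjusted p = 0.000987).

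Falls called in H1975 but not in HCC44 included C1RL-AS1 and MSC-AS1. C1RL-AS1 overlaps the start of C1RL, a serine protease gene related to complement C1r. Its level was 4.43 and 2.29 CPM with DMSO and 1.13 and 0.82 CPM with ACBI1 in H1975 (log2 fold change -1.78, SE 0.3, adjusted p = 0.0017), and 15.4 and 16.3 CPM and 11.7 and 14.3 CPM in HCC44 (-0.29, adjusted p = 0.423). C1RL moved in opposite directions in the lines, with -0.49 in H1975 (adjusted p = 0.00406) and 0.89 in HCC44 (adjusted p = 8.23e-05). MSC-AS1 spans MSC, which encodes the transcription factor musculin. It was at 5.53 and 7.42 CPM with DMSO and 1.77 and 2.78 CPM with ACBI1 in H1975 (-1.51, SE 0.22, adjusted p = 0.000667), and at 16.2 and 16.5 CPM and 14.6 and 13.7 CPM in HCC44 (-0.21, adjusted p = 0.478). MSC had 14 and 12 counts in H1975 DMSO and 0 in both H1975 ACBI1 libraries, while in HCC44 it rose by 1.13 (adjusted p = 0.00193). HECW2-AS1 fell in both lines, with -1.44 in H1975 (adjusted p = 0.00419) and -1.01 in HCC44 (adjusted p = 0.00926), the latter lost without HCC44 DMSO replicate 1 (0.0563) or ACBI1 replicate 2 (0.0667).

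In HCC44 the largest rise after PIK3CD-AS2 was that of PDCD4-AS1. It starts 438 bases from PDCD4, whose protein holds back translation initiation. PDCD4-AS1 went from 0.636 and 0.423 CPM to 5.07 and 5.87 CPM in HCC44, a log2 fold change of 3.37 (SE 0.27, adjusted p = 1e-05). In H1975 it went from 1.2 and 1.35 CPM to 2.07 and 2.25 CPM (0.76, SE 0.24, adjusted p = 0.0342), a call lost without any of the 4 H1975 libraries (adjusted p 0.0703 to 0.161). The difference between the lines was 2.6 (SE 0.36, adjusted p = 0.00105). PDCD4 itself had 0.0 in HCC44 (adjusted p = 1.0) and -0.36 in H1975 (adjusted p = 0.029).

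HOXC-AS2, TMPO-AS1 and KHDC1-AS1 also rose in HCC44. HOXC-AS2, from the HOXC cluster of body-patterning genes, was at 1.4 and 1.47 CPM with DMSO and 6.08 and 8.23 CPM with ACBI1 in HCC44 (log2 fold change 2.32, SE 0.28, adjusted p = 0.000137). Its H1975 levels of 1.07 and 1.05 CPM and of 0.824 and 1.44 CPM overlapped (0.09, adjusted p = 0.85). TMPO-AS1 starts 910 bases from TMPO, which encodes lamina-associated polypeptide 2. It went from 2.4 and 2.4 CPM to 7.87 and 10.9 CPM in HCC44 (1.97, SE 0.23, adjusted p = 9.68e-05) and from 3.23 and 3.03 CPM to 5.68 and 4.21 CPM in H1975 (0.66, adjusted p = 0.0418). The H1975 call was lost when H1975 DMSO 1 or 2, H1975 ACBI1 1, or HCC44 DMSO 1 or 2 was left out (adjusted p 0.0608 to 0.244). TMPO rose in HCC44 by 0.5 (adjusted p = 0.00109). KHDC1-AS1 went from 1.1 and 1.49 CPM to 4.94 and 4.84 CPM in HCC44 (1.92, SE 0.23, adjusted p = 0.000125), with 0.58 in H1975 (adjusted p = 0.0698), which was called with upper-quartile factors (0.65, adjusted p = 0.0446) and library totals (0.78, adjusted p = 0.0182). FMNL1-AS1, inside a formin gene, went from 1.76 and 1.86 CPM to 5.62 and 6.62 CPM in HCC44 (1.75, SE 0.33, adjusted p = 0.00197), with 0.04 in H1975 (adjusted p = 0.944). CCDC144NL-AS1 had 3 counts in HCC44 DMSO and 14 in HCC44 ACBI1, a ratio of 4.69 with an exact 95% counting interval of 1.31 to 25.5, and its call there (adjusted p = 0.0397) was lost with DESeq2 (0.0515) and without any of the 4 HCC44 libraries (0.0804 to 0.189).

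Falls in HCC44 without a call in H1975 were led by ELN-AS1 and RPL26L1-AS1. ELN-AS1 lies inside ELN, the elastin gene, and was at 1.88 and 1.77 CPM with DMSO and 0.48 and 0.362 CPM with ACBI1 in HCC44 (log2 fold change -2.11, SE 0.25, adjusted p = 0.000115). In H1975 it was at 4.55 and 4.84 CPM and at 5.15 and 5.82 CPM (0.22, adjusted p = 0.428), and ELN was at 0.452 CPM or less in every library. RPL26L1-AS1 starts 663 bases from RPL26L1, a gene of a ribosomal-protein-like product. It went from 4.39 and 3.27 CPM to 1.01 and 0.881 CPM in HCC44 (-2.02, SE 0.22, adjusted p = 7.74e-05), with 0.3 in H1975 (adjusted p = 0.284), and RPL26L1 fell in HCC44 by 0.47 (adjusted p = 0.00819).

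PAX8-AS1 fell together with its sense gene in HCC44. PAX8 encodes a transcription factor of thyroid and kidney, and PAX8-AS1 overlaps its 3' end. The antisense row had 27 and 20 counts in HCC44 DMSO and 3 and 3 in HCC44 ACBI1, a DMSO-to-ACBI1 ratio of 7.79 with an exact 95% counting interval of 3.33 to 22.3. In H1975, where it was far higher, it went from 58.1 and 52.8 CPM to 42.6 and 36.7 CPM (log2 fold change -0.48, SE 0.13, adjusted p = 0.0138). That call was lost under library totals (-0.28, adjusted p = 0.109) and without H1975 DMSO 1, DMSO 2 or ACBI1 2 (0.0509 to 0.17). PAX8 went from 4.05 and 3.48 CPM to 0.208 and 0.173 CPM in HCC44 (-4.29, SE 0.3, adjusted p = 4.54e-06), and had -0.02 in H1975 (adjusted p = 0.947).

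GOLGA4-AS1, PPP1R14B-AS1, UCKL1-AS1 and LURAP1L-AS1 complete the named falls in HCC44, with log2 fold changes of -1.98 (adjusted p = 0.000124), -1.88 (0.000435), -1.87 (0.00245) and -1.53 (0.000718). GOLGA4-AS1 also fell in H1975 (-0.81, adjusted p = 0.0172), a call lost under library totals (0.0556) and without H1975 DMSO 2, ACBI1 1 or ACBI1 2 (0.061 to 0.122). GOLGA4, a golgin of the Golgi, fell in HCC44 from 432 and 422 CPM to 235 and 213 CPM. LURAP1L-AS1 went from 16.7 and 16.8 CPM to 7.46 and 4.14 CPM in HCC44 while LURAP1L went the other way, from 8.15 and 9.62 CPM to 30.7 and 27.5 CPM (1.71, adjusted p = 7.24e-06). In H1975 LURAP1L-AS1 had -0.7 (adjusted p = 0.0615). That fall was called with DESeq2 (0.0398), with no filter on low counts (0.00626) and with that line fitted alone (0.0369). Its difference between the lines was -0.83 (adjusted p = 0.129), and was called with no filter on low counts (0.0351).

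Promoters of ELN-AS1, HSD11B1-AS1, LURAP1L-AS1 and DLGAP1-AS2 are shown because they hold the AP-1 letters TGANTCA, given in capitals, in RNAs that fell (the first 3) or rose (the last) in HCC44. Windows and strands are as for the promoters above.
ELN-AS1, chr7:74062231-74062530, minus strand: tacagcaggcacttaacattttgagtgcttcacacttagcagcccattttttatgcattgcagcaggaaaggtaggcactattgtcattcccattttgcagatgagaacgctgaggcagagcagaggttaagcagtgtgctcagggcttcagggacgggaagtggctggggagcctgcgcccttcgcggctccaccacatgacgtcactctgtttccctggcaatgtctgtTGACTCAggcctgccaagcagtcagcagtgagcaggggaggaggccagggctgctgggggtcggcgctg
HSD11B1-AS1, chr1:209724076-209724375, minus strand: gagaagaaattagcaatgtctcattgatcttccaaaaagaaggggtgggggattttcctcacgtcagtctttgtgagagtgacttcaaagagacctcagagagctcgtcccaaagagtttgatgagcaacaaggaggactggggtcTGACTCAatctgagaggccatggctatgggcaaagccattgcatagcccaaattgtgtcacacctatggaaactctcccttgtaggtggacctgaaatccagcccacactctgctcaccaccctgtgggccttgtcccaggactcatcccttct
LURAP1L-AS1, chr9:12814340-12814639, minus strand: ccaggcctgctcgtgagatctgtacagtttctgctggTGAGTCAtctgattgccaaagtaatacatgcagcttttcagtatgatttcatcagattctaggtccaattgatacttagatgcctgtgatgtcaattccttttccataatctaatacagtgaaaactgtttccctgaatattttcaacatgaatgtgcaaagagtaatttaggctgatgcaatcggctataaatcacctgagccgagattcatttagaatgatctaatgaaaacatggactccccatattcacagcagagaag
DLGAP1-AS2, chr18:3603487-3603786, plus strand: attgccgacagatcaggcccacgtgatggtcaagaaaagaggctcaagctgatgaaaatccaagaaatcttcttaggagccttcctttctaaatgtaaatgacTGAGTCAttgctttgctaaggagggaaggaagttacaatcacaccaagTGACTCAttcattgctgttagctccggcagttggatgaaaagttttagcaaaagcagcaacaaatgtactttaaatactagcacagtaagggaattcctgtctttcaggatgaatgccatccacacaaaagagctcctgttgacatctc
The first letter of the match lies at -19, -104, -213, and at -147 and -99, counted from the RefSeq start. TGANTCA reads the same on both strands apart from its middle base and was searched on both. It was found in 7.76% of all 27305 promoters and in 17 of the 231 (7.36%). Among them it was in 6 of 23 promoters of RNAs that fell in HCC44 (26.1%), 2 of 80 that rose (2.5%) and 9 of 128 not called (7.03%). In H1975 it was in 3 of 21 that fell (14.3%), 5 of 82 that rose (6.1%) and 9 of 128 not called (7.03%). The TEAD letters GGAATG, searched on both strands, were in 14.0% of all promoters, 13% of the 231, 6 of 23 that fell (26.1%), 5 of 80 that rose (6.25%) and 19 of 128 not called (14.8%) in HCC44. In H1975 they were in 3 of 21 that fell (14.3%), 7 of 82 that rose (8.54%) and 20 of 128 not called (15.6%). The CRE letters TGACGTCA were in 1.98% of all promoters and in 8 of the 231 (3.46%). In HCC44 they were in 1 of 23 that fell (4.35%), 5 of 80 that rose (6.25%) and 2 of 128 not called (1.56%). For H1975 these were 1 of 21 (4.76%), 2 of 82 (2.44%) and 5 of 128 (3.91%). The ELN-AS1 window also holds 1 match to the TEAD letters and 1 to the CRE letters, which are not in capitals. These are small counts given as a description, and a match is no evidence that a factor binds. The AP-1 letters do not occur within the CRE letters, so no base run counts for both.

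The response differed between the lines for 76 of the 291 RNAs (26.1%, against 18.6% of all genes tested and 25.4% of those averaging 2 CPM or more), a share near that of genes at such levels. The change was more positive in HCC44 in 39 RNAs (13.4%, against 10.2% of all genes and 14.1% of those averaging 2 CPM or more). It was more negative in 37 (12.7%, against 8.4 and 11.3%). With library totals these were 30 and 44. The count was 45 without HCC44 DMSO replicate 2, 46 without HCC44 DMSO replicate 1 and 47 without H1975 ACBI1 replicate 2. Only 6 RNAs were called in opposite directions (2.06%, against 2.23% of all genes), and the difference was called for all 6.

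HSD11B1-AS1 and PLS3-AS1 rose in H1975 and fell in HCC44. HSD11B1-AS1 overlaps the start of the gene for the cortisol-generating enzyme 11-beta-HSD1, whose own row was at 0.127 CPM or less. It went from 0.512 and 0.148 CPM to 0.811 and 0.862 CPM in H1975 (log2 fold change 1.35, SE 0.43, adjusted p = 0.0348) and from 10.3 and 14.6 CPM to 4.24 and 4.37 CPM in HCC44 (-1.53, SE 0.31, adjusted p = 0.00348). The rise in H1975 was lost with that line fitted alone (0.0847) and without H1975 DMSO 2, ACBI1 1 or ACBI1 2 or HCC44 ACBI1 1 (0.0504 to 0.154). It was 2.48 without H1975 DMSO 1 and 0.75 without H1975 DMSO 2. PLS3-AS1 overlaps the start of PLS3, an actin-bundling plastin. It went from 1.32 and 1.24 CPM to 3.44 and 2.8 CPM in H1975 (1.28, SE 0.27, adjusted p = 0.00477) and from 2.99 and 2.54 CPM to 1.58 and 0.975 CPM in HCC44 (-1.11, SE 0.27, adjusted p = 0.00886), the fall lost without HCC44 DMSO 1 or ACBI1 2 (0.0597 and 0.0669). PLS3 was at 178 to 329 CPM and had -0.17 (adjusted p = 0.224) and 0.09 (adjusted p = 0.531).

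VPS9D1-AS1, one of the 5 highest in mean CPM, fell in H1975 and rose in HCC44. It was at 106 and 107 CPM with DMSO and 77.8 and 73.5 CPM with ACBI1 in H1975, and at 28.9 and 29.8 CPM with DMSO and 49.4 and 72.2 CPM with ACBI1 in HCC44. The rise in HCC44 was 1.05 (SE 0.15, adjusted p = 0.00037). The fall in H1975 was -0.49 (SE 0.14, adjusted p = 0.0246) and was lost with library totals (-0.29, adjusted p = 0.135) and without any of the 4 H1975 libraries (0.075 to 0.133). The difference of 1.55 (SE 0.21, adjusted p = 0.000985) was called. VPS9D1, which surrounds it, fell in H1975 (-1.2, adjusted p = 0.00063) and had 0.19 in HCC44 (adjusted p = 0.441).

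The other 3 lie outside the rule for naming and were chosen after their values were seen. BCAN-AS1 went from 37.1 and 34.2 CPM to 61.1 and 57.3 CPM in H1975 (0.73, adjusted p = 0.000891) and from 67.0 and 59.2 CPM to 29.5 and 25 CPM in HCC44 (-1.21, adjusted p = 2.85e-05). GATA2-AS1, beside the gene of a haematopoietic transcription factor, had -0.59 in H1975 (adjusted p = 0.0049, -0.39 with library totals, and 0.0637 without H1975 ACBI1 2) and 0.67 in HCC44 (adjusted p = 0.00149). SIPA1L1-AS1 had 0.7 in H1975 (adjusted p = 0.0106) and -0.53 in HCC44 (adjusted p = 0.0288). The SIPA1L1-AS1 calls were lost in H1975 without DMSO 2 or ACBI1 2 (0.0579 and 0.0662), and in HCC44 with library totals (0.0591) and without DMSO 1, DMSO 2 or ACBI1 1 (0.0747 to 0.147). None of BCAN, GATA2 and SIPA1L1 was called in either line.

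**Figure D3:**
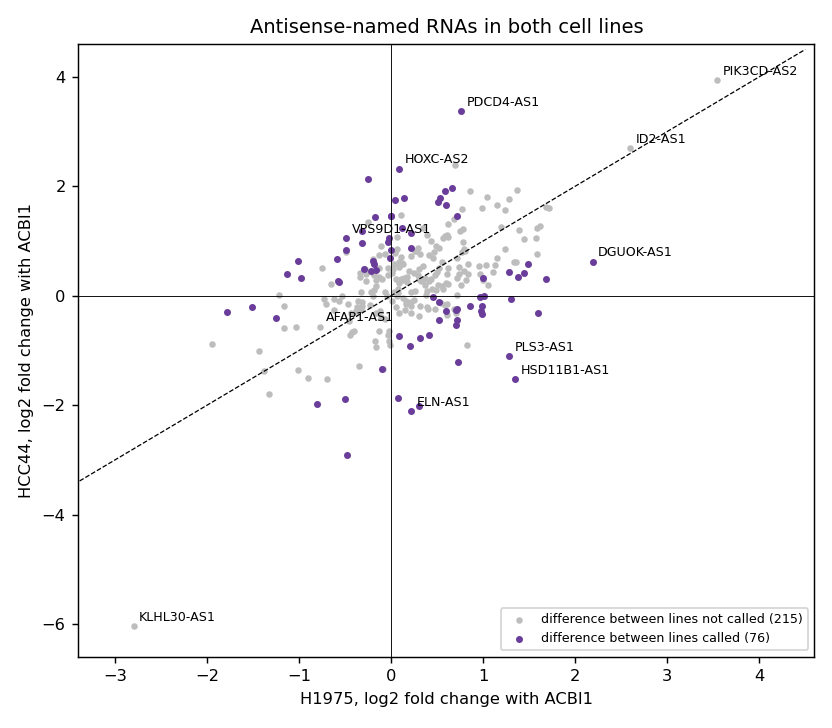
Log2 fold change with ACBI1 in H1975 (x axis) and HCC44 (y axis) for the 291 antisense-named RNAs, with equality as a dashed line. The 76 RNAs with a called difference between the lines are in purple; PIK3CD-AS2 (3.54 and 3.94) and ID2-AS1 (2.6 and 2.7) lie near the line, and PDCD4-AS1 (0.76 and 3.37), PLS3-AS1 (1.28 and -1.11) and HSD11B1-AS1 (1.35 and -1.53) away from it.

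The sense gene and the antisense-named RNA were both tested in 275 pairs. Both were called in 48 pairs in H1975, of which 13 rose together, 11 fell together, 21 had the antisense higher and the sense lower, and 3 the reverse. HCC44 had 59 such pairs, with 23, 8, 23 and 5 in the same order. In H1975, 92 of the 291 RNAs rose and 28 fell, while 31 of the 272 sense genes rose and 71 fell. In HCC44 these were 100 and 32, and 62 and 59. With such splits, pairs with the antisense higher and the sense lower also arise without a link within pairs. A link within pairs was not tested. The antisense was called alone in 67 pairs and the sense alone in 54 in H1975, against 66 and 62 in HCC44. Changes had the same sign in 52.0% of pairs in H1975 and 50.5% in HCC44. The Pearson correlation across pairs was 0.22 in H1975 and 0.11 in HCC44, and the Spearman correlation 0.1 and 0.03, a description over pairs that share their libraries.

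The ratio of antisense to sense was tested with limma on log2 values for all 773 pairs of the tables that passed the filter. For the antisense-named RNAs described here the ratio rose in 90 and fell in 28 of 275 pairs in H1975, and rose in 81 and fell in 46 in HCC44. Over all 773 pairs, 33.9% were called in H1975 (24.2% higher, 9.7% lower) and 35.4% in HCC44 (23.7% higher, 11.8% lower). The median change of the ratio was 0.23 and 0.25 against 0.25 and 0.23 over all 773 pairs, a like size. The 773 include the 275, and the other pairs were not taken alone. The H1975 count was 52 without H1975 ACBI1 replicate 2 and 75 without H1975 ACBI1 replicate 1. Per kb of exon, the antisense level had a median of 55.9% of the sense level over 288 pairs (quartiles 15.7 and 268%), and it was above the sense level in 112 pairs.

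ENTPD3-AS1 had the largest called rise of the ratio in H1975. It spans ENTPD3, an ectonucleotidase gene. ENTPD3-AS1 went from 3.0 and 2.5 CPM to 4.49 and 4.83 CPM in H1975 (0.76, SE 0.21, adjusted p = 0.0173, lost without DMSO 2 or ACBI1 2, 0.103 and 0.0969), while ENTPD3 went from 5.42 and 2.65 CPM to 0.558 and 0.311 CPM (-3.2, SE 0.41, adjusted p = 0.000286). In HCC44 ENTPD3-AS1 had 0.2 (adjusted p = 0.54) and ENTPD3 went from 46 and 35 counts to 2 and 1. The log2 ratio rose by 3.85 (SE 0.36, adjusted p = 8.69e-05) and 3.83 (SE 0.36, adjusted p = 4.1e-05). The antisense level thus held or rose while the sense level fell in both lines.

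PDE7B-AS1 and its sense gene, a cyclic AMP phosphodiesterase, show a ratio that moved in opposite directions through the sense gene. PDE7B had 10 and 19 counts in H1975 DMSO and 1 and 1 in H1975 ACBI1, and went from 2.4 and 1.57 CPM to 8.99 and 15.5 CPM in HCC44. PDE7B-AS1 was at 3.29 to 5.86 CPM in all 8 libraries, with -0.02 in H1975 (adjusted p = 0.947) and -0.64 in HCC44 (adjusted p = 0.0268, lost with library totals, 0.053, and without HCC44 DMSO 1, DMSO 2 or ACBI1 2, 0.0822 to 0.146). The ratio changed by 2.43 in H1975 (SE 0.4, adjusted p = 0.00161) and -3.23 in HCC44 (SE 0.4, adjusted p = 0.000232).

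Falls of the ratio came with a rising sense gene in DNAAF3-AS1, ELFN1-AS1 and VASH1-AS1. DNAAF3, an assembly factor of ciliary dynein, rose in H1975 from 24.0 and 21.1 CPM to 45.7 and 47.0 CPM while DNAAF3-AS1 fell from 8.35 and 8.0 CPM to 3.3 and 3.22 CPM. The ratio changed by -2.36 (SE 0.49, adjusted p = 0.00475, and 0.0666 with a prior count of 0.5 or 0.0509 without H1975 ACBI1 2). ELFN1 rose in H1975 from 3.12 and 3.87 CPM to 15.5 and 20.3 CPM with ELFN1-AS1 at 7.5 to 9.32 CPM, a ratio change of -2.35 (SE 0.43, adjusted p = 0.00259). VASH1, which encodes the tubulin-trimming enzyme vasohibin, rose in HCC44 from 3.73 and 2.16 CPM to 15 and 15.7 CPM with VASH1-AS1 at 7.3 to 9.28 CPM, a ratio change of -2.69 (SE 0.27, adjusted p = 4.95e-05). In A1BG-AS1 it was the antisense that fell in H1975, from 31.3 and 28.2 CPM to 13.3 and 12.2 CPM (-1.22, SE 0.17, adjusted p = 0.000433). The A1BG-AS1 ratio changed by -1.63 in H1975 (limma, adjusted p = 0.0103). This call was lost without H1975 DMSO 2, ACBI1 1 or ACBI1 2, with changes from -1.77 to -1.46. A1BG itself was low, at a mean of 0.082 CPM per kb over the libraries.

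**Figure D4:**
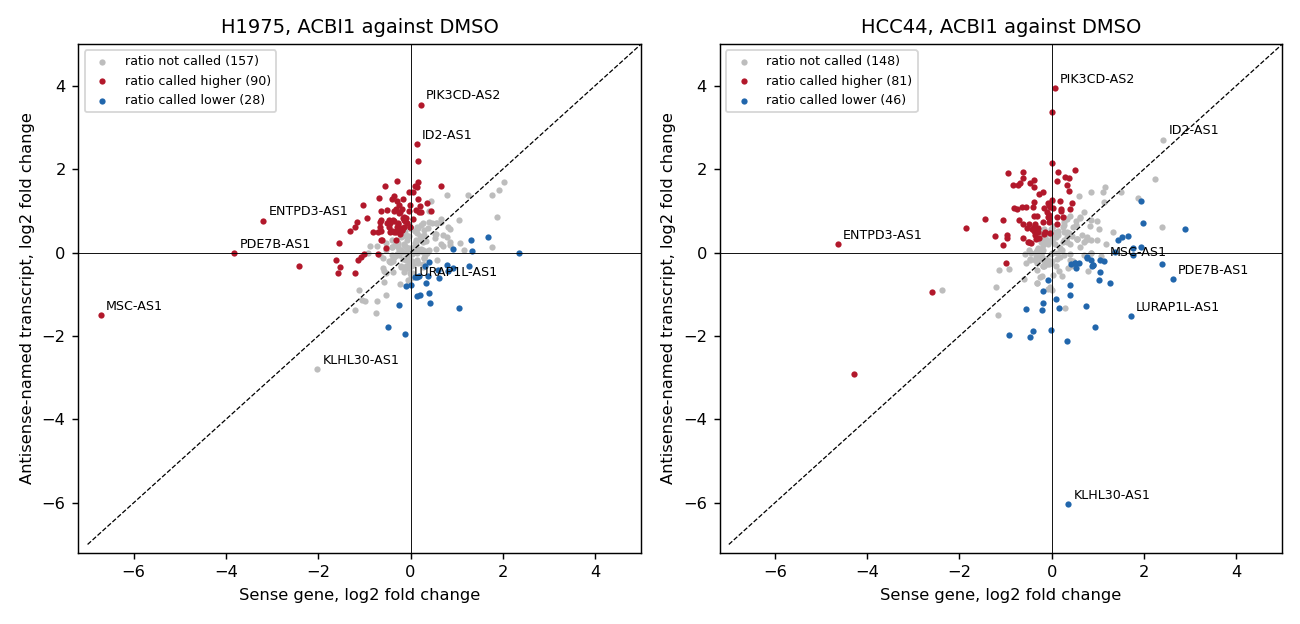
Log2 fold change with ACBI1 of each antisense-named RNA (y axis) against that of its sense gene (x axis) for 275 pairs in each line, with equality as a dashed line. Pairs whose ratio was called higher (90 in H1975, 81 in HCC44) are red and lower (28 and 46) blue; the same-sign share was 52.0% and 50.5%.

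Of the 5 RNAs with the highest mean CPM, which is not a level per length, AFAP1-AS1 fell in both lines and VPS9D1-AS1 is described above. AFAP1-AS1 overlaps the 3' end of AFAP1, an adaptor of actin filaments, at chr4:7754090-7778928 on the plus strand. It was at 375 and 393 CPM with DMSO and 232 and 219 CPM with ACBI1 in H1975, and at 163 and 143 CPM with DMSO and 111 and 94.5 CPM with ACBI1 in HCC44. It fell in both lines, by 0.77 (SE 0.1, adjusted p = 0.00038) and 0.57 (SE 0.1, adjusted p = 0.00164) on the log2 scale. AFAP1 had 0.02 (adjusted p = 0.951) and -0.21 (adjusted p = 0.515).

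OIP5-AS1, also known as Cyrano, was at 98.8 to 143 CPM in H1975 and 171 to 211 CPM in HCC44 and was called in neither line (0.25 and -0.07, adjusted p = 0.196 and 0.748), though library totals gave 0.024 in H1975. OIP5, a centromere factor gene whose 3' end it overlaps, rose in HCC44 by 1.76 (adjusted p = 0.00389). FGD5-AS1 was at 112 to 156 CPM, with 0.11 in H1975 (adjusted p = 0.409, but 0.31 and 0.0245 with library totals) and 0.3 in HCC44 (adjusted p = 0.0311). The latter was lost with DESeq2 (0.06) and without any of 5 libraries (H1975 ACBI1 1 or 2, HCC44 DMSO 1 or 2, HCC44 ACBI1 1, 0.0556 to 0.15). GABPB1-AS1 was at 38.7 and 19.7 CPM with DMSO and 54.5 and 34.6 CPM with ACBI1 in H1975, which overlap (0.61, adjusted p = 0.203, and 0.023 without H1975 DMSO 1), and at 116 and 130 CPM and 172 and 150 CPM in HCC44, which do not overlap (0.39, adjusted p = 0.394, and 0.0205 with that line fitted alone).

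Of 26 antisense RNAs with published studies that were listed, 17 averaged at least 2 CPM and the other 9 did not. PSMB8-AS1 lies head to head with PSMB8, a subunit of the immunoproteasome, and fell beside it in both lines. It went from 6.06 and 8.5 CPM to 3.23 and 3.99 CPM in H1975 (-1.01, SE 0.26, adjusted p = 0.0142) and from 4.61 and 6.83 CPM to 1.86 and 2.64 CPM in HCC44 (-1.35, SE 0.27, adjusted p = 0.00319). The call in H1975 was lost without H1975 DMSO 2 (0.123) or ACBI1 1 (0.0905). PSMB8 fell as well, with -0.53 (adjusted p = 0.00181) and -0.55 (adjusted p = 0.00099) in the same order.

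CDKN2B-AS1, known as ANRIL, spans CDKN2B, which encodes the cell-cycle inhibitor p15. It was at 2.89 and 2.45 CPM with DMSO and 2.91 and 2.9 CPM with ACBI1 in H1975, and at 3.7 and 4.07 CPM with DMSO and 8.78 and 9.45 CPM with ACBI1 in HCC44. It rose in HCC44 (1.23, SE 0.18, adjusted p = 0.00045) and had 0.12 in H1975 (adjusted p = 0.661). CDKN2B went from 60.5 and 72.8 CPM to 209 and 304 CPM in HCC44 (1.94, adjusted p = 3.04e-05) and fell in H1975 by 0.53 (adjusted p = 0.0348).

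SBF2-AS1 rose in both lines, with 0.75 in H1975 (adjusted p = 0.00942, lost without H1975 DMSO 1 or ACBI1 2, 0.0819 and 0.0703) and 1.19 in HCC44 (SE 0.19, adjusted p = 0.000698). SBF2, a myotubularin-related gene, was called in neither. FOXP4-AS1 went from 2.11 and 2.2 CPM to 5.24 and 5.37 CPM in H1975 (1.3, SE 0.21, adjusted p = 0.00126) with 1.56 to 2.05 CPM in all HCC44 libraries, while FOXP4, a forkhead factor gene, fell in both lines (-0.69, adjusted p = 0.00072, and -0.31, adjusted p = 0.0356). MAPKAPK5-AS1 (0.6, adjusted p = 0.00295) and THAP9-AS1 (0.45, adjusted p = 0.00526) rose in H1975 and had -0.28 (adjusted p = 0.0817) and -0.03 (adjusted p = 0.877) in HCC44. NNT-AS1 fell in HCC44 from 48.9 and 48.7 CPM to 31.0 and 28.0 CPM (-0.73, SE 0.11, adjusted p = 0.000486) and had 0.09 in H1975 (adjusted p = 0.58). ZEB1-AS1 had 0.52 and 0.51 (adjusted p = 0.0312 and 0.0344) and MCM3AP-AS1 0.41 and 0.74 (adjusted p = 0.0467 and 0.00209). The ZEB1-AS1 calls were lost without 3 of the libraries in H1975 (DMSO 1, ACBI1 1, ACBI1 2, 0.0694 to 0.21) and without 5 in HCC44 (H1975 ACBI1 1 and 2, HCC44 DMSO 1 and 2, HCC44 ACBI1 1, 0.0567 to 0.152). The MCM3AP-AS1 call in H1975 was lost without any library but HCC44 ACBI1 1 and 2 (0.0652 to 0.234), with no filter (0.0652) and with the line fitted alone (0.0544), and its value was 0.62 with library totals. TTN-AS1 was called in neither line (-0.32 and -0.11, adjusted p = 0.107 and 0.579).

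Without the degrader, 219 of the 291 differed between the lines (75.3%, against 67.9% of all genes tested and 74.6% of those averaging 2 CPM or more), 93 higher in HCC44 (31.6% of all genes were) and 126 lower (36.4%). The share called in either direction is near that of genes at such levels. By direction, 38.1% of those genes were higher in HCC44 and 36.5% lower, while more of the RNAs were lower than higher. An RNA near 0 in one line had to be high in the other to reach the mean of 2 CPM, so the largest of these differences are a description. ZNF528-AS1 had 4550 counts over the H1975 DMSO libraries and 0 over those of HCC44, at least 1460-fold higher with a floor of 3 counts over the group. The zinc finger gene ZNF528, which starts 83 bases away, followed it, with 97.3 and 91.2 CPM in H1975 DMSO and 0 and 1 count in HCC44 DMSO. FLG-AS1 (791 against 0 counts) and TSPEAR-AS1 (651 against 0 counts) were at least 253-fold and at least 208-fold higher in H1975. FLG-AS1 rose with ACBI1 in H1975 (0.69, adjusted p = 0.0415), a call lost without H1975 DMSO 1, DMSO 2 or ACBI1 2 (0.0745 to 0.275). CCDC144NL-AS1 had 8897 counts in H1975 DMSO and 3 in HCC44 DMSO, a ratio of 2850 with an exact 95% counting interval of 974 to 13800.

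In the other direction, HOXA-AS2, from the HOXA cluster, had 970 counts in HCC44 DMSO and 1 in H1975 DMSO, a ratio of 1010 (counting interval 181 to 40000). C1QTNF1-AS1 had 1441 and 7 counts, a ratio of 214 (104 to 534), while C1QTNF1, a secreted C1q-like protein gene, was at 29.3 and 40.4 CPM in H1975 DMSO and 78.4 and 91.3 CPM in HCC44 DMSO. HOXA-AS2 went on to rise in HCC44 with ACBI1 from 7.76 and 7.55 CPM to 11.6 and 17.0 CPM (0.9, SE 0.23, adjusted p = 0.0112), lost without HCC44 DMSO 1, DMSO 2 or ACBI1 2 (0.0668 to 0.114), the last giving 0.6. C1QTNF1-AS1 fell in HCC44 from 9.06 and 13.6 CPM to 3.68 and 5.69 CPM (-1.28, SE 0.29, adjusted p = 0.00645, and 0.086 without HCC44 DMSO 2). SLCO4A1-AS2, inside an organic anion transporter gene, was at 9.25 and 7.08 CPM in HCC44 DMSO and 0.481 and 0.325 CPM in H1975 DMSO, with no call for ACBI1 in either line.

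**Figure D5:**
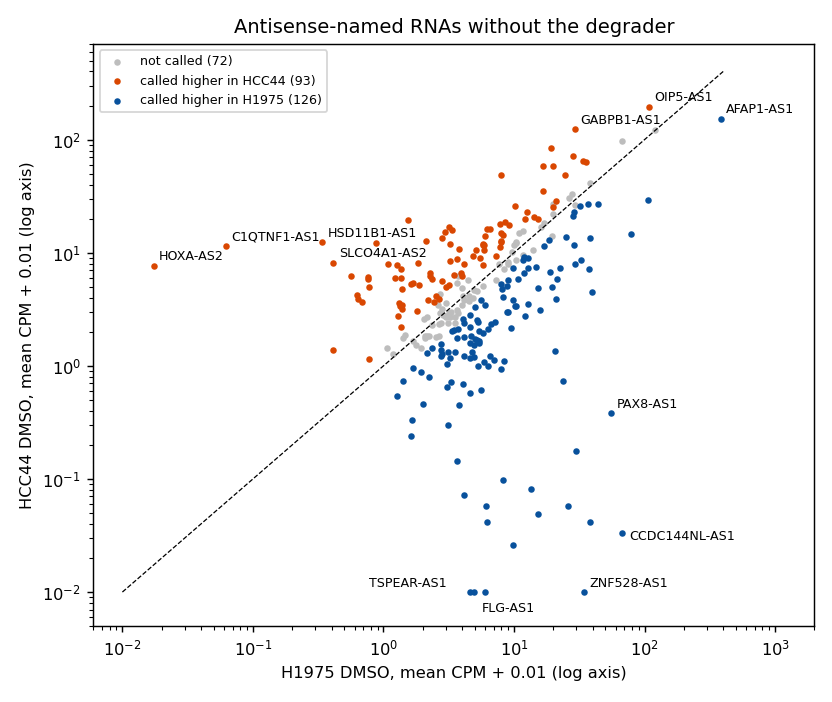
Mean CPM plus 0.01 of the 291 antisense-named RNAs in H1975 DMSO (x axis) and HCC44 DMSO (y axis), both on log axes, with equality as a dashed line. The 93 called higher in HCC44 are orange and the 126 called higher in H1975 blue, and ZNF528-AS1, FLG-AS1 and TSPEAR-AS1 lie at the bottom edge with 0 counts in HCC44 DMSO.

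Genes of the nuclear RNA decay machinery were read beside these results, since divergent transcripts are among its substrates. Of the 24 genes, EXOSC5 and MPHOSPH6, subunit and cofactor of the exosome, rose in H1975, while ZFC3H1 and PABPN1, of the poly(A)-tail exosome-targeting pathway, fell. This is 16.7% called, against 31.3% of all genes and 37.7% of those averaging 2 CPM or more. In HCC44, EXOSC2 rose and 9 fell, EXOSC5 and MPHOSPH6 among them. This is 41.7% called, against 34.9% of all genes and 43.9% of those averaging 2 CPM or more. The median log2 fold change of the 24 was -0.01 and -0.2, against -0.01 and 0.01 over all genes tested. Those that fell included EXOSC1 (-0.64, adjusted p = 0.000738), the nuclease gene DIS3 (-0.54, adjusted p = 0.00679), ZCCHC8 of the nuclear exosome targeting complex (-0.41, adjusted p = 0.0071) and C1D (-0.57, adjusted p = 0.00693). The part of these levels in the change of antisense-named RNAs was not tested.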

How the data were processed

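Reads per gene were counted by the authors in 8 bulk RNA libraries, and the deposited values are raw counts per gene symbol. Per the submitters' processing notes the tools were TopHat2 2.1.1 and HTSeq 0.11.0 on hg38. Per the labels' protocols, libraries came from total RNA with a NEBNext Ultra II DNA kit. Annotation release and strand setting are not given in the sources used here. The 5 summary rows that name no gene (14.29 to 15.77% of each table) were left out.

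One edgeR 4.0.16 quasi-likelihood fit (filterByExpr, TMM factors, robust dispersion, R 4.3.3) covered all 8 libraries and 21307 genes, with 4 residual degrees of freedom and Benjamini-Hochberg adjustment. The SE is the fold change divided by the root of F. Antisense-to-sense ratios were tested with limma 3.58.1 (trend, robust) on log2 CPM with a prior count of 2. The scripts were tested on simulated data. Replicates differed by more than counting noise (chi-square per degree of freedom 23.97 to 48.42). Arrangements came from GENCODE 29 and promoters from RefSeq.

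The members, gene lists and tests were chosen with earlier results of these data known. RNAs were named by rule: the 5 highest in CPM, the 8 largest called rises and 8 falls per line, the 4 largest called differences, ratio changes, DMSO differences and shared changes each way, and a list of 26 studied RNAs. Alternatives were DESeq2 1.42.0, other scalings and filters, each line alone, a replicate block, other dispersion, each library left out, other membership limits, another prior count and pairs without exon overlap. Counting intervals cover counting error only.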

Additional observations from a re-analysis of the deposited data

Results flagged for a closer look

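The change with ACBI1 differed between the lines, by edgeR's test of the difference itself, for 30 of the antisense-named RNAs described singly. Values are the log2 change in HCC44 minus that in H1975. It was more positive in HCC44 for PDCD4-AS1 (2.6), CCDC144NL-AS1 (2.39), HOXC-AS2 (2.22), FMNL1-AS1 (1.71), VPS9D1-AS1 (1.55), C1RL-AS1 (1.49), ELFN1-AS1 (1.45), KHDC1-AS1 (1.34), TMPO-AS1 (1.31), MSC-AS1 (1.3), GATA2-AS1 (1.26), CDKN2B-AS1 (1.11) and GAS6-AS1 (0.84). It was more negative in HCC44 for HSD11B1-AS1 (-2.88), PAX8-AS1 (-2.43), PLS3-AS1 (-2.39), ELN-AS1 (-2.34), RPL26L1-AS1 (-2.32), UCKL1-AS1 (-1.95), BCAN-AS1 (-1.94), ZNF710-AS1 (-1.93), DGUOK-AS1 (-1.57), TRIM7-AS2 (-1.38), PPP1R14B-AS1 (-1.38), FOXP4-AS1 (-1.35), SIPA1L1-AS1 (-1.23), GOLGA4-AS1 (-1.17), MAPKAPK5-AS1 (-0.88), NNT-AS1 (-0.82) and THAP9-AS1 (-0.48). The adjusted p-values ran from 7.09e-05 (BCAN-AS1) to 0.0443 (CCDC144NL-AS1).

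These differences missed the threshold when at least 1 library was left out for C1RL-AS1, CCDC144NL-AS1, CDKN2B-AS1, FMNL1-AS1, FOXP4-AS1, GAS6-AS1, GOLGA4-AS1, KHDC1-AS1, MSC-AS1, PPP1R14B-AS1, THAP9-AS1, TMPO-AS1, TRIM7-AS2 and UCKL1-AS1, with adjusted p from 0.0502 to 0.183. Without H1975 DMSO replicate 1 the difference was 0.99 for FMNL1-AS1 and 0.94 for C1RL-AS1. That of CCDC144NL-AS1, which rests on 3 and 14 counts in HCC44, also missed the threshold with upper-quartile factors (0.0547), library totals (0.0548) and a filter of at least 1 CPM in 2 libraries (0.0507). For no other RNA of the 30 did leaving out a single library end the call of the difference.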

How the results depend on the processing

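The counts of RNAs called in H1975, in HCC44, for the difference and between the DMSO groups were 120, 132, 76 and 219. DESeq2 gave 135, 135, 88 and 226, and library totals 147, 137, 74 and 217. A mean of at least 5 CPM, which leaves 153 RNAs, gave 63, 73, 45 and 119. The ratio was called in 118 and 127 pairs, and in 25 and 36 of the 65 pairs without exon overlap. The limit of 5 CPM counts fewer RNAs from the same fit, and the limit on overlap tests fewer pairs. Leaving out each library gave 69 to 125 in H1975, 88 to 133 in HCC44, 45 to 73 for the difference, 195 to 220 between the DMSO groups, and 52 to 115 and 87 to 132 for the ratios. With library totals the difference was more positive in HCC44 in 30 and more negative in 44 RNAs (40.5% against 51.3% positive). Same-numbered replicates share only a number: their deviations correlated at 0.374 in H1975 and 0.109 in HCC44, and a replicate block gave 157, 162, 117 and 232 calls. Of the values described singly the block added 27 calls, among them GABPB1-AS1 in H1975 (0.65, adjusted p = 0.000743) and HCC44 (0.00924), KHDC1-AS1 in H1975 (0.0341) and the DLGAP1-AS2 difference (0.00803). It ended 3, the ratios of ELFN1-AS1 in H1975 (0.116), DLGAP1-AS2 in HCC44 (0.128) and TTN-AS1 in H1975 (0.134). For the 306 values of RNAs described singly, 4402 of 4711 recomputed values kept direction and call, 247 lost and 62 gained the call, and 0 reversed. The limit of 2 CPM in both treatments was chosen after the data were seen and gave 95, 106, 67 and 191 calls of 249. Every alternative planned was run.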
